A study of Mus musculus with 18 samples.

Results

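The mammary epithelium of mouse embryos in which β-catenin was stabilized was compared between E16.5 (in days of embryonic development), when a normal gland has grown from a bud into a short sprout, and E13.5, the bud stage. The comparison used 9 of the 18 RNA-seq libraries of the study: 5 of E16.5 stabilized epithelium and 4 of E13.5 stabilized epithelium. The stabilized embryos carried Krt14Cre in single copy (Krt14Cre/wt) and a Ctnnb1 allele with floxed exon 3 over a wild-type allele. Cre, driven by the promoter of the basal keratin Krt14, removes exon 3 in epithelial cells, so that these embryos had 1 wild-type and 1 stabilized β-catenin allele. The control embryos, 5 libraries of E16.5 and 4 of E13.5, were littermates with the same floxed allele over wild type and without Cre, so effects of Cre itself and of the stabilized allele cannot be told apart against them. All embryos were of a mixed C57Bl/6 and NMRI background. Epithelium of mammary buds 1 to 3 was dissected with needles from enzyme-treated ventral skin, and tissue of 2 to 3 embryos of the same litter and genotype was pooled into 1 library. The replicates of a group came from at least 3 litters, but which library came from which litter was not given. The E13.5 pools held embryos of both sexes and the E16.5 pools only females, so stage and sex makeup cannot be told apart, and only autosomal genes were analysed.

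β-catenin carries the canonical Wnt signal: exon 3 holds the phosphorylation sites that mark it for destruction, and without them it accumulates and acts with TCF and LEF factors on Wnt target genes. The mammary gland and the hair follicle both start as Wnt-dependent placodes of the embryonic ectoderm. In the follicle, matrix cells exposed to high Wnt signals later turn into the hair shaft, made of acidic (type I) and basic (type II) hair keratins crosslinked with keratin associated proteins (Krtap), while neighbouring cells form the inner root sheath. In the epidermis, basal cells move outward through the spinous layer, marked by Krt1 and Krt10, into the granular and cornified layers, whose proteins and lipids make the barrier. The mammary sprout normally makes neither hair shaft nor cornified layers.

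The promoters of some hair and cornified genes called higher at E16.5 are shown because these genes moved together (values below). They are examples and do not stand for the motif content of their lists, whose shares follow. They are RefSeq promoters of build GRCm38.p6, from 250 bases before to 50 bases after the gene start, read 5′ to 3′ on the gene's strand. Capitals mark CTTTGAA and CTTTGAT (letters bound by LEF and TCF factors) on either strand and TATAAA (the TATA box) on either strand; the motifs do not overlap each other in these sequences. Krt31 and Krt34 encode type I hair shaft keratins, Krtap11-1 a keratin associated protein, Tchh the inner root sheath protein trichohyalin, and Lor the cornified layer protein loricrin.
Krt31, chr11:100050502-100050801, minus strand: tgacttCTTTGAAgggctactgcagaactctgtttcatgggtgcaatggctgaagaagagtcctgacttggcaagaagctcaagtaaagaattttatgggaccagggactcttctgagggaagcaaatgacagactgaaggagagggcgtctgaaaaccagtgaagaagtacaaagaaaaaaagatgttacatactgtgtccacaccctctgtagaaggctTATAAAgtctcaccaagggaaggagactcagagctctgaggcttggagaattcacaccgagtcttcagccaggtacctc
Krt34, chr11:100041505-100041804, minus strand: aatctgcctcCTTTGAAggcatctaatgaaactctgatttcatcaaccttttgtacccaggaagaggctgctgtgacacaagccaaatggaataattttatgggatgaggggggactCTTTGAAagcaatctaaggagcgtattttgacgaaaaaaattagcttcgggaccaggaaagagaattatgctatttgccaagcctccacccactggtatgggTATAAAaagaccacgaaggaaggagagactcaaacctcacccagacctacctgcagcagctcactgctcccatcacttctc
Krtap11-1, chr16:89571134-89571433, minus strand: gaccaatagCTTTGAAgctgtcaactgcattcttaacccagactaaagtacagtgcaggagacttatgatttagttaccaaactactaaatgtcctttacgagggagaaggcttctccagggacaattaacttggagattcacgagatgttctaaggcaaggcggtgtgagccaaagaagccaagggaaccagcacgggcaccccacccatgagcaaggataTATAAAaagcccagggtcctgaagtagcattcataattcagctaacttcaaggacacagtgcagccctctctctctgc
Tchh, chr3:93442080-93442379, plus strand: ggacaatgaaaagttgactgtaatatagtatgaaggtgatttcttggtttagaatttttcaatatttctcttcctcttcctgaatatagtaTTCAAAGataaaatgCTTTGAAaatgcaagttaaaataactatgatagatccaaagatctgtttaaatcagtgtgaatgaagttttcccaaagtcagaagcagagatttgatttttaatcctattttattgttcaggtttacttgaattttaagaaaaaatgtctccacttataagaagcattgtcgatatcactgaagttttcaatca
Lor, chr3:92083093-92083392, minus strand: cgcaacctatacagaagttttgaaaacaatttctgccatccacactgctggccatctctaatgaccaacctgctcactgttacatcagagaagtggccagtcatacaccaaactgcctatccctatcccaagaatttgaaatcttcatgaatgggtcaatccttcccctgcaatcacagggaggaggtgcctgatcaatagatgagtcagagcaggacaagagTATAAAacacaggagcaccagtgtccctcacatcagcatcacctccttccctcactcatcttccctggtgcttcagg
Krt31, Krt34 and Krtap11-1 each hold CTTTGAA and, close to the gene start, TATAAA. In Tchh the match at base 92 is on the opposite strand, so that it is printed as TTCAAAG, and no TATAAA was found, whereas Lor holds TATAAA alone. Hair promoters not printed here differ: that of Krt36 held none of these motifs, and that of Krtap16-1 held TATAAA alone.

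Across the RefSeq table, CTTTGAA was found on either strand in 5.14% of all 32851 promoters and in 3.77% of the 15025 promoters of autosomal genes tested. It was present in 5 of the 9 promoters matched for hair shaft keratins (55.6%), in 9 of 51 for Krtap genes (17.6%), in 2 of 8 for inner root sheath genes (25%) and in 1 of 35 for granular and cornified genes (2.86%). CTTTGAT was found in 3.73% of all promoters, against 0 of 9, 4 of 51 (7.84%), 0 of 8 and 2 of 35 (5.71%) in those lists. Of 20 promoters of Wnt target genes, 1 held CTTTGAA (5%) and 2 held CTTTGAT (10%). TATAAA on the gene's strand between bases 200 and 240 was found in 2.42% of all promoters, against 5 of 9 (55.6%), 34 of 51 (66.7%), 5 of 8 (62.5%) and 14 of 35 (40%) in those lists. Many of these genes are neighbouring copies that share sequence, so the promoters are not independent, and a match describes letters, not a binding site.

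The libraries held 26768810 to 36922108 estimated counts. Levels are CPM (counts scaled to a common library total after TMM normalization), and a stage change is the log2 fold change of E16.5 over E13.5 from edgeR's quasi-likelihood fit of all 18 libraries, called at a Benjamini-Hochberg adjusted p under 0.05. Libraries of the same stage were close in stabilized epithelium (Spearman correlation across genes 0.956 to 0.981 within E16.5 and 0.959 to 0.979 within E13.5) and stages were further apart (0.843 to 0.912). Of the E16.5 stabilized libraries, replicate 1 had by far the highest epidermal and immediate early levels, replicate 3 the lowest Krtap levels, and replicate 4 gave 23.5% of its counts to 10 satellite-like predicted genes, against at most 0.796% in any other library. Mitochondrial transcripts made up 2.62% to 5.36% of counts in E16.5 stabilized and 1.79% to 2.45% in E13.5 stabilized libraries. The epithelial adhesion gene Epcam was at 212 ± 27.8 CPM in E16.5 stabilized and 260 ± 19.2 CPM in E13.5 stabilized libraries (SD, n = 5 and 4), and the basal keratins Krt5 and Krt14 were present in every library (values below). Ctnnb1 itself was at 2223, 2218, 3211, 1693 and 2043 CPM at E16.5, against 2758, 3300, 3496 and 3487 CPM at E13.5 in stabilized epithelium, overlapping ranges with a change of -0.52 ± 0.156 (log2, SE; adjusted p = 0.0171; 0.0511 to 0.196 under the offsets of the deposited normalized table and without E13.5 replicate 3 or 4); gene-level counts do not show whether exon 3 was removed.

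Between the stages, stabilized epithelium changed most in genes of the hair shaft, the inner root sheath and the cornifying epidermis, which were high at E16.5. At E13.5 hair shaft keratin and Krtap genes were near 0, while granular and cornified genes summed to 43.4 to 73.4 CPM. Many Wnt target genes, some Wnt ligands and many genes of the embryonic mammary bud fell. Of 16580 autosomal genes tested, 2744 were higher at E16.5 (16.6%) and 1903 lower (11.5%), together 28.0%. At least a doubling was seen in 1653 of those higher and at least a halving in 640 of those lower, while the median change over all tested genes was 0.0. Genes without a count in any E13.5 stabilized library made up 291 of those called higher, and 12 genes without a count at E16.5 were called lower. In 15.4% of tested genes every E16.5 stabilized library was above every E13.5 stabilized library, and in 10.5% every one was below. Most genes named below were chosen by small adjusted p, by such non-overlap or after their values were seen. Their non-overlap therefore adds no support. Over the same days the control epithelium changed in 47.7% of genes, 4166 higher (25.1%) and 3747 lower (22.6%).

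The stage change differed between the genotypes in 32.5% of genes, being higher in stabilized epithelium for 2590 (15.6%) and lower for 2798 (16.9%). Called changes in the same direction in both genotypes numbered 2087, which was 44.9% of the calls in stabilized epithelium and 26.4% of those in controls. A further 354 genes were called higher in stabilized and lower in control epithelium, and 326 the reverse. The lists of genes given below had 624 autosomal members in the file, of which those that passed a filter on low counts were tested. A gene that is silent at E13.5 can pass that filter only by being high elsewhere, so a count of called members over a list of such genes describes the list and carries no weight of its own beside the 16.6% and 11.5% of all genes. In bulk tissue, fewer cells of a type and less RNA of that type per cell cannot be told apart.

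**Figure D1:**
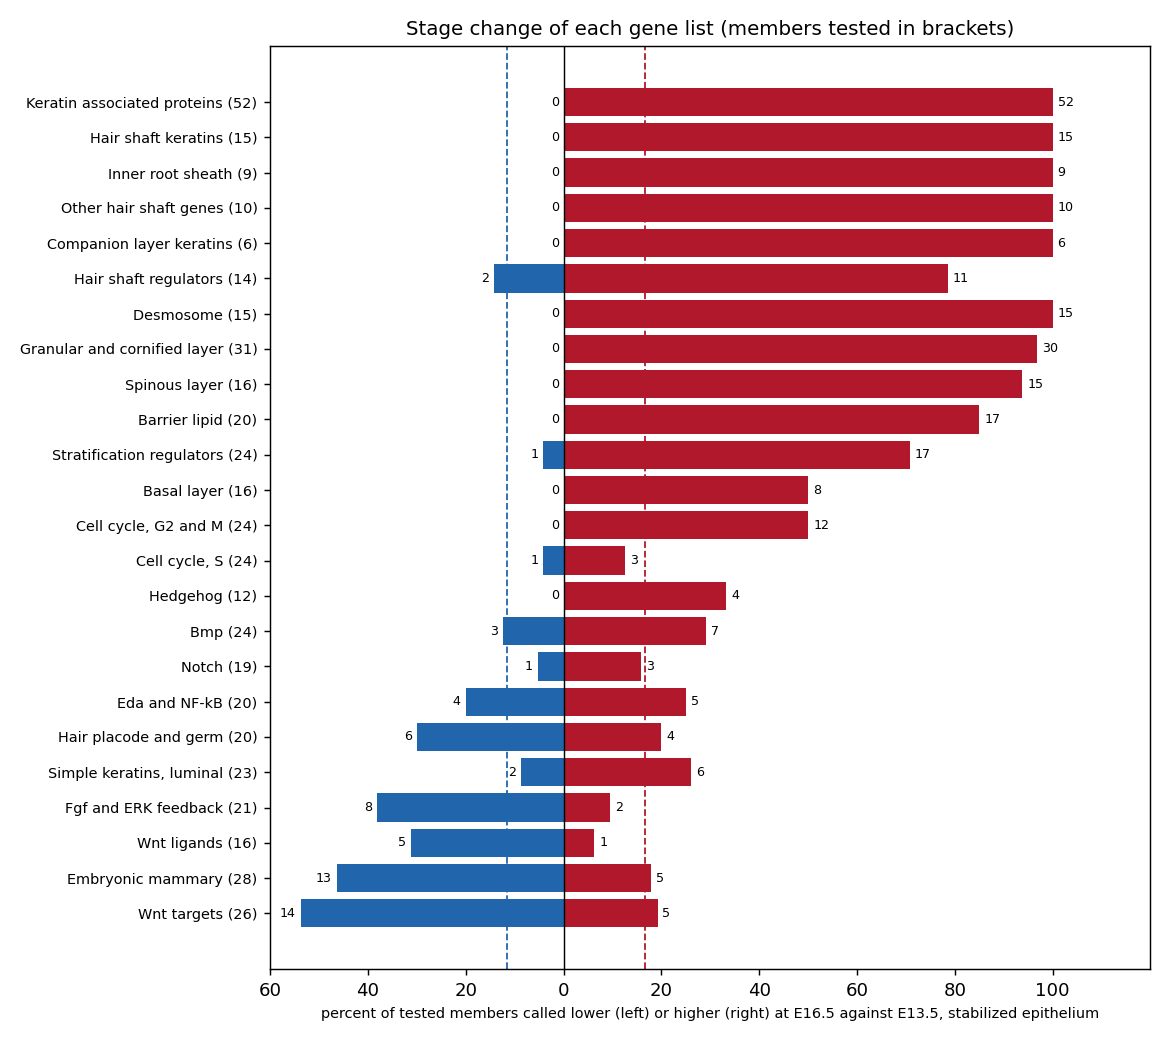
Percent of the tested members of 24 gene lists called higher (red, right) or lower (blue, left) at E16.5 against E13.5 in stabilized epithelium; digits beside the bars are the numbers of genes, and the dashed lines mark the shares among all tested autosomal genes, 16.6% higher and 11.5% lower. Krtap genes, hair shaft keratins, inner root sheath genes, companion layer keratins and desmosome genes were called higher in every tested member, whereas Wnt targets and embryonic mammary genes had more members called lower, 14 of 26 and 13 of 28.

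The hair shaft keratins were together abundant in every E16.5 stabilized library and at or near 0 in every E13.5 stabilized library. All 15 tested hair shaft keratin genes were called higher, with a median change of 14.40, or 12.89 when genes without counts at E13.5 are set to a floor of 3 counts over that group. Their summed level was 5410 to 8690 CPM in E16.5 stabilized libraries and 0.531 to 1.37 CPM in E13.5 stabilized libraries. In controls the sums were 0.321 to 1.91 CPM at E16.5 and 0.476 to 0.809 CPM at E13.5, and 1 member was called higher.

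Krt34, a type I keratin of the hair cortex, had 779, 970, 569, 763 and 744 CPM in E16.5 stabilized replicates 1 to 5, against 0 in all 4 E13.5 stabilized libraries. That is at least 30299-fold higher, and the 5 libraries lay within a narrow range. Krt33b, another cortex keratin, had 817, 852, 391, 613 and 829 CPM, against 0 in all 4, and was at least 27744-fold higher. Krt31 had 585, 457, 330, 384 and 616 CPM at E16.5, against a single count in E13.5 replicate 4, a ratio of 56162 with a counting interval (95%) of 10080 to 2218326. Replicate 3 was the lowest of the 5 for Krt34, Krt33b and Krt31. Krt33a had 818, 797, 591, 750 and 715 CPM at E16.5, against 0.0342, 0.166, 0.208 and 0 CPM at E13.5, a change of 12.77 ± 0.808 (SE; edgeR adjusted p = 1.82e-08).

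Type II partners followed the same course. Krt81, which pairs with type I keratins in the cortex, had 1280, 1319, 716, 864 and 1306 CPM at E16.5, against 0, 0, 0.0346 and 0 CPM at E13.5. Krt87 had 1586, 1362, 821, 800 and 1322 CPM, against 0.342, 0.265, 0 and 0 CPM. In both genes replicates 3 and 4 were below the other E16.5 libraries and no E13.5 library came near them. Other hair keratins were less even between libraries. Krt35, a keratin of the lower hair shaft, had 250, 119, 213, 153 and 206 CPM at E16.5, against 0, 0, 0.243 and 1.31 CPM at E13.5 (8.89 ± 0.839, edgeR adjusted p = 6.92e-06). Krt36 had 231, 88.6, 272, 91.5 and 79.9 CPM, against 0 in all 4 E13.5 libraries, and was at least 6044-fold higher. Krt84, a type II hair keratin found in tongue papillae too, had 566, 158, 534, 234 and 206 CPM, against a single count at E13.5. For Krt36 and Krt84, unlike the cortex keratins above, replicates 1 and 3 stood above the other 3 libraries.

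The stage change was higher in stabilized than in control epithelium for 10 of the 15 hair shaft keratins; for Krt34 the difference was 18.99 ± 2.13 (edgeR adjusted p = 1.62e-05) and for Krt81 15.53 ± 2.7 (adjusted p = 0.000262). Krt34 had no counts in E13.5 stabilized libraries and Krt81 had 1, so their fitted differences are no measure of size. For genes near 0 in both control groups, such as Krt31, the difference test has little information (adjusted p = 1).

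The Krtap genes, small cysteine- or glycine- and tyrosine-rich proteins that fill the space between the keratin filaments, were the other large component. Of 58 autosomal Krtap genes 52 were tested and all 52 were called higher, with a median change of 13.88, or 12.50 with the floor; 34 of the 52 had no counts at E13.5. Summed levels were 4970 to 21600 CPM in E16.5 stabilized libraries and 0.164 to 1.96 CPM in E13.5 stabilized libraries, against 0.178 to 3.81 CPM in E16.5 controls and 1.01 to 2.81 CPM in E13.5 controls. In controls 2 of the 52 were called lower and none higher, and the difference between genotypes was called for 24, each higher in stabilized epithelium. Many Krtap genes are near-identical copies of each other, and estimated counts may be split among them, so sums are firmer than single members.

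Krtap3-1, a high-sulfur member of the chromosome 11 cluster, had 1733, 3170, 281, 1932 and 2734 CPM at E16.5, against 0.274, 0, 0.0346 and 0 CPM at E13.5 (14.59 ± 1.17, edgeR adjusted p = 2.87e-07). Krtap22-2, a member of the chromosome 16 cluster, had 1050, 1808, 122, 735 and 1449 CPM, against 0 in all 4, and was at least 40900-fold higher. Both were lowest in replicate 3. Krtap11-1 varied less, with 497, 546, 314, 367 and 361 CPM, against 0 in all 4 E13.5 libraries (at least 16512-fold higher), and Krtap15 had 116, 95.9, 102, 70.5 and 55 CPM, against 0 in all 4. Replicate 3 was the lowest of the 5 libraries for 43 of the 52 tested Krtap genes. Its summed level as a share of the mean of the other 4 was 36.3% for chromosome 16, 27% for chromosome 1, 26.6% for chromosome 11, 4.45% for chromosome 10 and 2.76% for chromosome 7. Without replicate 3, 52 of 52 tested Krtap genes were called higher. These genes were near 0 in the other groups and pass the filter mainly through E16.5 stabilized libraries, so this count is no check on replicate 3.

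Counted per kilobase of exon, the small Krtap genes led the hair genes in E16.5 stabilized epithelium. Krtap3-1 averaged 3261 CPM per kilobase (lowest library 465, highest 5248), Krtap22-2 2829 (334 to 4954) and Krtap8-1 2802 (949 to 4098). These 3 overlap widely and cannot be ordered. Among the keratins Krt81 averaged 518 CPM per kilobase (338 to 623), Krt87 517 (351 to 696), Krt34 475 (354 to 603) and Krt33b 443 (247 to 539), again with overlapping ranges, and Krt31 averaged 300. Trichohyalin, from a long gene, averaged 374 CPM per kilobase (194 to 761).

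**Figure D2:**
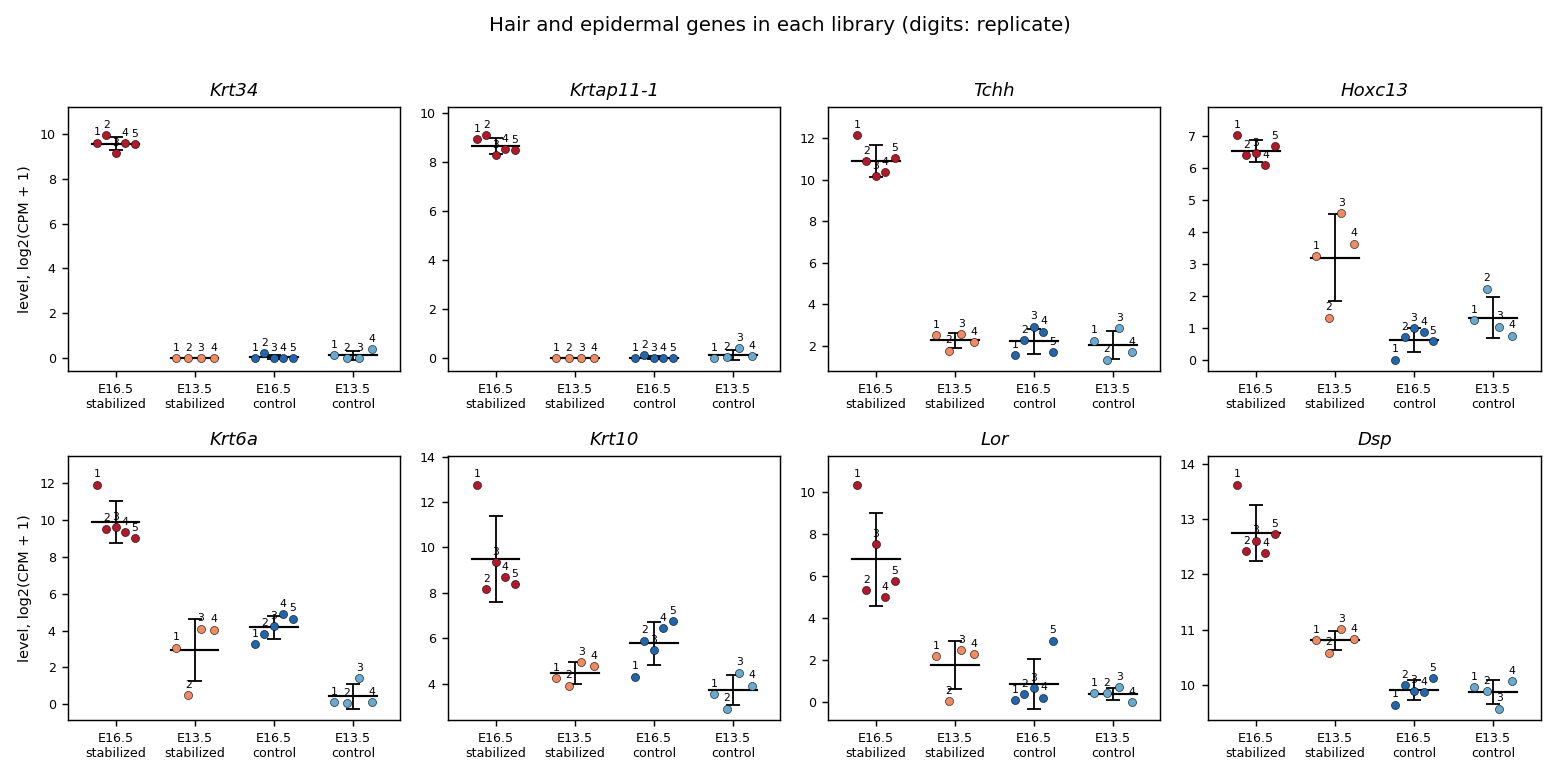
Level of 8 genes on a log2(CPM + 1) scale in each library, by group; digits give the replicate, horizontal lines the mean and bars the SD over replicates (n = 5, 4, 5 and 4). Krt34 and Krtap11-1 were present only at trace levels outside the E16.5 stabilized libraries, Tchh was low in the other 3 groups, and E16.5 stabilized replicate 1 stood above the other 4 for Krt6a, Krt10 and Lor.

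Genes of the inner root sheath, which moulds the growing shaft, rose as well. All 9 tested inner root sheath genes were called higher, with a median of 9.02, and 4 of them changed more in stabilized than in control epithelium. Tchh, the trichohyalin of the inner root sheath and medulla, had 4434, 1886, 1133, 1318 and 2105 CPM at E16.5, against 4.79, 2.42, 4.99 and 3.57 CPM at E13.5. The change was 9.11 ± 0.684 (edgeR adjusted p = 1e-07), whereas controls had 4.04 CPM at E16.5 and 3.47 CPM at E13.5 on average. Krt73, a type II keratin of the sheath cuticle, had 536, 303, 298, 156 and 263 CPM, against 0.0342, 0.365, 2.01 and 0 CPM (9.02 ± 0.857, adjusted p = 1.74e-06). Krt71, which carries mutations in curly-coated animals, had 165, 62.9, 20.9, 38 and 67.9 CPM, against 0, 0, 0.554 and 0.196 CPM. For Tchh, Krt71 and the type I sheath keratins Krt27 and Krt26, replicate 1 was the highest and replicate 3 the lowest E16.5 library. Without replicate 1, 8 sheath genes passed the filter and all 8 were called higher, with a median of 8.71. Sheath genes too were low outside the E16.5 stabilized libraries, so this count carries no weight of its own.

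Keratins of the companion layer and the upper follicle were called higher in 6 of 6 tested members, median 7.13. Krt75, the keratin of the companion layer between the root sheaths, had 352, 139, 158, 157 and 284 CPM at E16.5, against 2.36, 0, 2.77 and 0.851 CPM at E13.5. Krt6a had 3931, 746, 783, 657 and 527 CPM, against 7.39, 0.398, 16.2 and 15.6 CPM (7.07 ± 1.2, edgeR adjusted p = 0.000461; 6.11 without replicate 1, adjusted p = 0.00044). Krt17, its usual partner in follicles and in activated epidermis, had 5245, 2438, 2290, 2109 and 2030 CPM, against 379, 109, 447 and 370 CPM. Replicate 1 of E16.5 was the highest for all 3 genes and replicate 2 of E13.5 the lowest. Controls shared part of this: 5 of the 6 were called higher there, and Krt17 and Krt79 had a smaller change in stabilized epithelium. Krt79, a keratin of the infundibulum and sebaceous duct, averaged 170 CPM at E16.5 and 5.79 CPM at E13.5 in stabilized epithelium, against 262 CPM at E16.5 and 0.0238 CPM (3 counts over the group) at E13.5 in controls, a difference of -8.33 ± 1.24 (edgeR adjusted p = 0.000102). Sebaceous gland genes showed little: 2 of 10 were called higher and 1 lower (20% and 10%), near the 16.6% and 11.5% of all tested genes.

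Other proteins of the hair shaft were called higher in 10 of 10 tested genes, median 9.75 (9.04 with the floor). Dsg4, the desmosomal cadherin of the hair cortex, had 430, 282, 281, 301 and 367 CPM at E16.5, against 0, 0, 0.935 and 0.458 CPM at E13.5 (9.89 ± 0.907, edgeR adjusted p = 1.22e-06). Gprc5d, a receptor gene of the hair cortex, had 389, 602, 269, 461 and 409 CPM, against 1.33, 0, 0.104 and 0 CPM. Hephl1, a copper oxidase whose loss curls the whiskers of mice, had 199, 173, 131, 138 and 149 CPM, against 0 in all 4, and was at least 6254-fold higher. Stages did not overlap in any of the 3. Padi3, which citrullinates trichohyalin, was already present at E13.5, with 81.5, 55.5, 42.7, 46.2 and 70.3 CPM at E16.5, against 20.8, 17.7, 23.4 and 24.1 CPM at E13.5 (1.46, adjusted p = 0.0013).

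Transcription factors of the hair matrix rose above levels that were already measurable at E13.5. Of 14 tested hair shaft regulators 11 were called higher and 2 lower in stabilized epithelium, whereas in controls 4 were called higher and 6 lower. Hoxc13, which binds hair keratin promoters, had 129, 83.4, 87.7, 67.1 and 102 CPM at E16.5, against 8.41, 1.49, 22.9 and 11.4 CPM at E13.5, a change of 3.08 ± 0.707 (edgeR adjusted p = 0.00387). Controls averaged 0.579 CPM at E16.5 and 1.68 CPM at E13.5. Foxn1, the nude gene, needed for hair shaft differentiation, had 131, 79.4, 71.9, 57.1 and 114 CPM, against 0.855, 1.33, 1.04 and 1.9 CPM (6.14 ± 0.487, adjusted p = 6.84e-08). Its change exceeded that in controls by 5.64 (adjusted p = 1.24e-06). Vdr, the vitamin D receptor, needed for the hair cycle, had 56.8, 75.9, 56.2, 38.3 and 62.3 CPM, against 3.39, 3.45, 5.96 and 4.02 CPM (3.78 ± 0.252, adjusted p = 2.4e-09).

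Msx2, Dlx3 and Cux1 were already expressed at E13.5. Msx2, which maintains Foxn1 in the matrix, had 160, 141, 126, 125 and 177 CPM at E16.5, against 50.3, 11.2, 91.4 and 47.6 CPM at E13.5 (1.54, edgeR adjusted p = 0.00491). Dlx3, a regulator of Hoxc13 and of the sheath, had 369, 256, 225, 156 and 329 CPM, against 125, 43.4, 168 and 134 CPM, where the lowest E16.5 library fell below the highest at E13.5. Cux1, known from curly-haired mutants, had 1273, 1625, 1632, 958 and 1465 CPM, against 443, 460, 688 and 591 CPM (1.35 ± 0.184, adjusted p = 1.84e-05), while controls averaged 173 CPM at E16.5 and 390 CPM at E13.5. E13.5 replicate 2 was the lowest of its group for Hoxc13, Msx2 and Dlx3. The 2 members called lower were Lef1 and Msx1. Lef1, the partner of β-catenin in the hair precortex, had 171, 177, 133, 136 and 207 CPM at E16.5, against 357, 278, 366 and 325 CPM at E13.5 (-1.01 ± 0.194, adjusted p = 0.000605; 0.0876 under the offsets of the deposited normalized table); in controls it was 26.8 CPM at E16.5 and 611 CPM at E13.5, so that the change was 3.50 ± 0.284 higher in stabilized epithelium (adjusted p = 3.81e-08).

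The epidermal programme rose in the same libraries, and its size depended on replicate 1. Of 16 tested spinous genes 15 were called higher (median 7.13), and of 31 tested granular and cornified genes 30 were (median 9.68, or 7.92 with the floor). Without replicate 1, 15 of 16 and 27 of 27 were called higher, with medians of 6.27 and 8.84. Only 27 of the 31 granular and cornified genes then passed the filter on low counts, so the count of 27 carries no weight of its own. Summed spinous levels were 23063 CPM in replicate 1 and 3300 to 4270 CPM in the other 4 E16.5 libraries, against 205 to 248 CPM at E13.5. Summed granular and cornified levels were 14117 CPM in replicate 1 and 1395 to 1971 CPM in the other 4, against 43.4 to 73.4 CPM at E13.5. Immediate early and stress genes moved with the same library, at 6243 CPM in replicate 1 and 1026 to 1924 CPM in the other 4, against 352 to 730 CPM at E13.5; their part in the epidermal result was not tested. Hair shaft keratins did not set replicate 1 apart in this way, at 8687 CPM against 5414 to 7815 CPM in the other 4. Other hair lists did: companion and upper follicle keratins summed to 12400 CPM in replicate 1, against 3107 to 3855 CPM in the other 4. Inner root sheath genes summed to 5601 CPM, against 1552 to 2642 CPM.

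**Figure D3:**
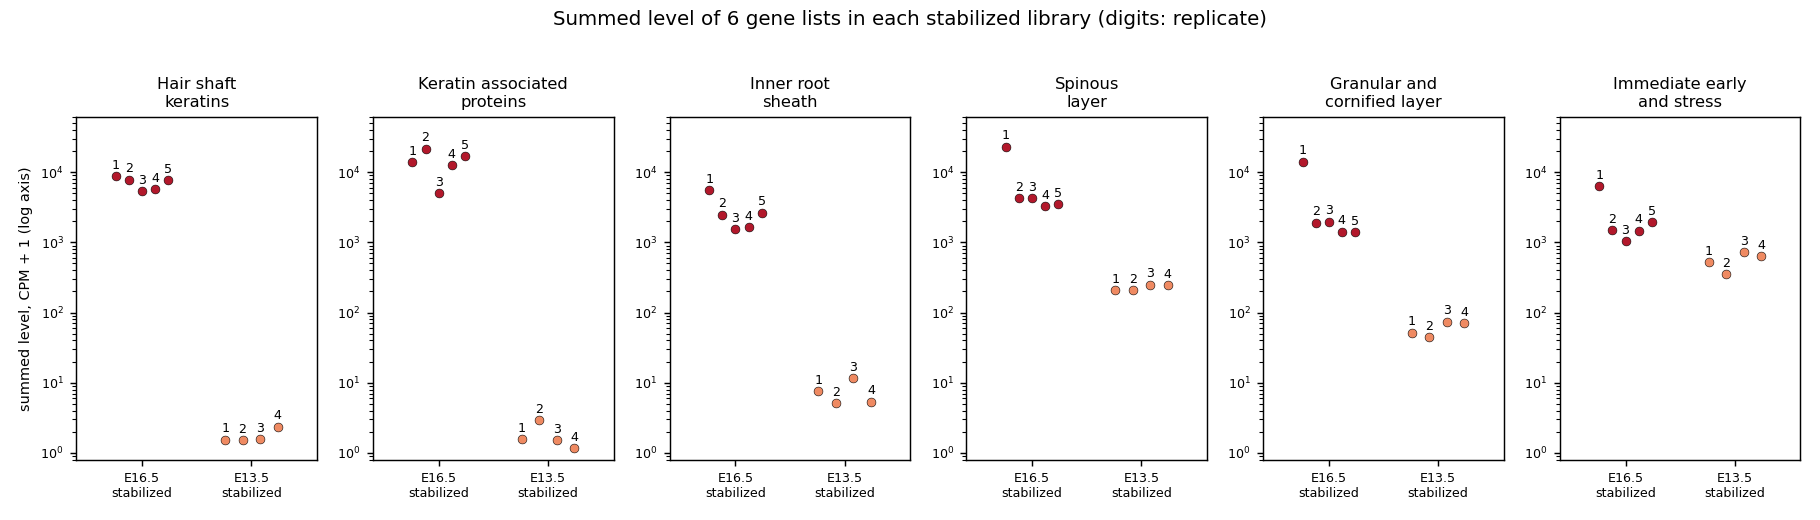
Summed level of 6 gene lists in each stabilized library, as CPM + 1 on a log axis; digits give the replicate. E16.5 replicate 1 lies above the other 4 for spinous, granular and cornified, inner root sheath, and immediate early and stress genes. It is also highest, by less, for hair shaft keratins. E16.5 replicate 3 lies lowest for keratin associated proteins, and the E16.5 and E13.5 libraries do not overlap in any of the 6 lists.

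Among spinous genes, Krt10 had 6963, 288, 652, 409 and 332 CPM at E16.5, against 18.1, 14, 29.8 and 26.4 CPM at E13.5 (6.29 ± 1.13, edgeR adjusted p = 0.000721; 4.26 without replicate 1, adjusted p = 4.08e-05). Its type II partner Krt1 had 6370, 438, 685, 358 and 314 CPM, against 3.56, 1.56, 3.43 and 3.44 CPM (9.09 ± 1.2, adjusted p = 4.9e-05; 7.23 without replicate 1, adjusted p = 1.87e-07). Replicate 1 was far above the other E16.5 libraries for both keratins, and the other 4 still stood clear of every E13.5 library. Lgals7, a galectin of stratified epithelia, was more even, with 908, 616, 276, 389 and 507 CPM, against 34.9, 21.3, 30.7 and 24.8 CPM (4.27 ± 0.322, adjusted p = 3.48e-08). Sbsn, a secreted suprabasal protein, had 1247, 189, 116, 178 and 234 CPM, against 1.54, 2.72, 2.29 and 2.39 CPM, and its change exceeded that in controls by 7.26 (adjusted p = 3.82e-05). In controls 11 of the 16 were called higher as well. Krt10 averaged 62.3 CPM in E16.5 and 13.1 CPM in E13.5 controls, and the change was 4.04 higher in stabilized epithelium (adjusted p = 0.0248).

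Late differentiation genes varied more between libraries. Flg, the filaggrin of keratohyalin granules, had 3312, 39.8, 134, 56.5 and 11.6 CPM at E16.5, against 0 in all 4 E13.5 libraries. It was at least 28145-fold higher, and at least 2395-fold without replicate 1, and it was not called when the stabilized libraries were fitted alone (adjusted p = 0.0614). Lor had 1331, 39.9, 187, 30.9 and 53.5 CPM, against 3.62, 0.0332, 4.57 and 3.96 CPM (6.75 ± 1.65, edgeR adjusted p = 0.00677; 4.68 without replicate 1, adjusted p = 0.0192). Flg2, a filaggrin relative, had 106, 0.663, 9.57, 2.64 and 0.238 CPM, against 0 in all 4, and was not called (adjusted p = 0.0891). Cdsn, the corneodesmosin of cornified junctions, had 313, 51.7, 49.5, 61.8 and 125 CPM, against 0 in all 4 (at least 4764-fold higher, 2852-fold without replicate 1). Replicates 1 and 3 were the 2 highest for Flg, Lor and Flg2 but not for Cdsn. Asprv1, a protease that processes filaggrin, was expressed at both stages, with 1111, 490, 379, 250 and 306 CPM, against 34.9, 37, 50.2 and 43.2 CPM (3.62 ± 0.455, adjusted p = 2.17e-05). The kallikreins that shed the outermost layer (Klk5, 8.42; Klk7, 8.78) and their inhibitor Spink5 (9.68) were called higher too.

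In controls 7 of the 31 granular and cornified genes were called higher, and the change was higher in stabilized epithelium for 6. Of the list 17 tested genes had no counts at E13.5. The control sums stayed at 24.1 to 70.1 CPM at E16.5 and 9.03 to 16.7 CPM at E13.5.

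Enzymes and carriers of barrier lipids were called higher in 17 of 20 tested members and lower in none, median 3.56 (3.07 without replicate 1, with 17 called). Abca12, which loads lipids into lamellar granules, had 364, 174, 119, 110 and 90.5 CPM at E16.5, against 3.18, 2.82, 1.18 and 1.15 CPM at E13.5 (6.36 ± 0.632, edgeR adjusted p = 1.99e-06). Elovl4, which makes very long chain fatty acids, had 438, 141, 142, 107 and 83.8 CPM, against 5.27, 4.78, 5.37 and 2.58 CPM (5.34 ± 0.499, adjusted p = 8.18e-07). In both, replicate 1 was the highest and every E16.5 library was far above every E13.5 library. Smpd3, a sphingomyelinase, had 123, 126, 121, 98.8 and 107 CPM, against 19.9, 7.76, 37 and 26.6 CPM, and here replicate 1 did not stand out. Controls had 6 members called higher and 4 lower, and the change was higher in stabilized epithelium for 11 and lower for 1. Alox12e, Ugcg and Degs2 were not called.

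Of 24 tested regulators of stratification 17 were called higher and 1 lower (13 and 1 without replicate 1). Trp63, the p63 factor that defines stratified epithelia, had 788, 704, 756, 728 and 684 CPM at E16.5, against 415, 447, 512 and 448 CPM at E13.5, a modest and very even change of 0.68 ± 0.119 (edgeR adjusted p = 0.000225). In controls Trp63 was 92.1 CPM at E16.5 and 414 CPM at E13.5, a difference between genotypes of 2.85 ± 0.169 (adjusted p = 7.07e-10). Grhl1, an activator of desmosomal and barrier genes, had 396, 180, 196, 203 and 243 CPM, against 16.4, 13.1, 30.8 and 28.2 CPM (3.46 ± 0.294, adjusted p = 1.1e-07). Klf4, needed for the barrier, had 570, 172, 178, 152 and 183 CPM, against 17.8, 10.3, 29.6 and 25.5 CPM (3.59, adjusted p = 1.68e-05; 3.05 without replicate 1). Zfp750, a p63 target that drives terminal differentiation, had 402, 162, 137, 178 and 250 CPM, against 31.5, 17.6, 44 and 32.5 CPM. The groups did not overlap for any of these. Gata3, a factor of both the inner root sheath and the mammary luminal lineage, was the member called lower, with 402, 254, 222, 212 and 317 CPM, against 361, 443, 451 and 333 CPM (-0.50, adjusted p = 0.041; lost in 13 of 28 alternatives, adjusted p 0.0548 to 0.12), and its ranges overlapped.

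Genes of the desmosome, the junction that anchors keratin filaments at the cell surface, rose together. All 15 tested desmosome and plaque genes were called higher, median 2.51 (2.09 without replicate 1, again 15 of 15), against 7 higher and 2 lower in controls. Dsp, desmoplakin, which ties keratin filaments to desmosomes, had 12674, 5504, 6259, 5352 and 6794 CPM at E16.5, against 1801, 1531, 2059 and 1813 CPM at E13.5 (2.02 ± 0.221, edgeR adjusted p = 1.51e-06). Controls had 963 CPM of Dsp at E16.5 and 941 CPM at E13.5, and the change was 1.99 higher in stabilized epithelium. Perp, a desmosomal tetraspan protein, had 2328, 1216, 1184, 922 and 985 CPM, against 201, 120, 202 and 183 CPM (2.91, adjusted p = 2.12e-07). Dsg1a, the cadherin of differentiated layers, had 1641, 721, 851, 617 and 607 CPM, against 0.398 to 17.6 CPM, and Dsc3, the cadherin of basal layers, 883, 584, 803, 593 and 469 CPM, against 92.4, 69.7, 113 and 154 CPM. Crosslinking enzymes of the transglutaminase and peptidylarginine deiminase families were called higher in 5 of 9; Tgm3, the enzyme of hair and epidermal envelopes, had 163, 86.6, 70.8, 79.2 and 106 CPM, against 1.68, 0.332, 1.32 and 2.52 CPM.

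Of 16 tested basal keratin and hemidesmosome genes 8 were called higher and none lower, median 0.66, against medians of 7.13 and 9.68 in the spinous and the granular and cornified lists. Krt14, whose promoter drives Cre here, had 929, 494, 502, 307 and 365 CPM at E16.5, against 362, 416, 355 and 264 CPM at E13.5 and was not called (0.57, edgeR adjusted p = 0.0755). Krt5, its partner, had 3855, 2287, 2693, 1684 and 2261 CPM, against 1672, 923, 1636 and 1245 CPM (0.90, adjusted p = 0.00591), without overlap. Col17a1, a hemidesmosomal collagen, had 1211, 1177, 1189, 760 and 1203 CPM, against 438, 348, 630 and 465 CPM (1.24, adjusted p = 0.000113). Lama3, a laminin 332 subunit, had 377, 292, 335, 331 and 328 CPM, against 98.4, 110, 131 and 121 CPM (1.53 ± 0.126, adjusted p = 4.18e-08), whereas in controls it was 52.9 CPM at E16.5 and 154 CPM at E13.5.

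Most Wnt target genes that were called fell between the stages, and the fall was smaller than in controls for many of them. Of 26 tested Wnt targets 14 were called lower and 5 higher, median -0.66. In controls 14 were called lower and 8 higher, median -1.77, and the change was higher in stabilized epithelium for 14 and lower for 6. Axin2, the most general feedback target, had 254, 261, 317, 199 and 244 CPM at E16.5, against 420, 348, 483 and 447 CPM at E13.5 (-0.73 ± 0.164, edgeR adjusted p = 0.00219). In controls Axin2 was 27.9 CPM at E16.5 and 312 CPM at E13.5, and the difference was 2.75 ± 0.238 (adjusted p = 8.32e-08). Notum, which inactivates secreted Wnt proteins, had 136, 140, 186, 112 and 143 CPM, against 602, 369, 671 and 554 CPM (-1.94 ± 0.259, adjusted p = 2.17e-05). Nkd1, a further feedback inhibitor, had 222, 277, 252, 172 and 267 CPM, against 614, 426, 586 and 529 CPM. For all 3 every E16.5 library was below every E13.5 library.

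Dkk4, a secreted Wnt antagonist of placodes, had 150, 181, 175, 135 and 158 CPM at E16.5, against 698, 307, 477 and 402 CPM at E13.5 (-1.56 ± 0.539, edgeR adjusted p = 0.0415), a call that was lost in 15 of 28 alternatives (adjusted p 0.05 to 0.116). In controls Dkk4 was 0.00714 CPM at E16.5 (1 count over the group) and 22.6 CPM at E13.5, where replicate 3 alone had 66.5 CPM, and the change was 9.46 higher in stabilized epithelium. Sp5, a transcription factor that Wnt induces, had 54.3, 56.8, 56.2, 26.1 and 50.2 CPM, against 103, 94.4, 171 and 154 CPM (-1.42, adjusted p = 0.000405), while controls had 0.028 CPM at E16.5 and 21.8 CPM at E13.5. Cdx1, an intestinal regulator and Wnt target, had 0.957, 0.883, 0.443, 1.21 and 2.07 CPM, against 17.6, 6.8, 16 and 23 CPM (-3.83, adjusted p = 7.21e-05). The 5 targets called higher were Cd44, Myc, Nkd2, Bambi and Prdm1. Cd44, a hyaluronan receptor, had 342, 191, 231, 246 and 183 CPM, against 26.7, 17.1, 32.9 and 40.3 CPM (3.03 ± 0.241, adjusted p = 3.52e-08). The stem cell marker Lgr5 and the cyclin gene Ccnd1 were not called in stabilized epithelium, whereas Ccnd1 averaged 1576 CPM in E16.5 and 362 CPM in E13.5 controls, a difference of -2.13.

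Of 16 tested Wnt ligand genes 5 were called lower and 1 higher, against 11 lower and 1 higher in controls, and the change was higher in stabilized epithelium for 9 and lower for none. Wnt4 was the ligand called higher, with 134, 105, 144, 101 and 121 CPM at E16.5, against 74.2, 57.5, 73.2 and 63.2 CPM at E13.5 (0.85, edgeR adjusted p = 0.00158). Controls had 8.65 CPM at E16.5 and 150 CPM at E13.5, a difference of 4.97 ± 0.271 (adjusted p = 4.68e-10). Wnt7a had 7.35, 10.6, 11.8, 9.03 and 11.6 CPM, against 51.7, 88.3, 56.1 and 48.9 CPM (-2.60, adjusted p = 5.73e-06). Wnt10b, the ligand of early mammary and hair placodes, had 66, 76.2, 101, 47.8 and 70.6 CPM, against 152, 202, 160 and 165 CPM (-1.23, adjusted p = 0.00402). Wnt6 (-1.30), Wnt9b (-3.45) and Wnt10a (-0.64) were lower too. The call of Wnt10a (adjusted p = 0.0226) was lost without E16.5 replicate 1 or 4 or without E13.5 replicate 3 or 4 (adjusted p 0.0509 to 0.0686).

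**Figure D4:**
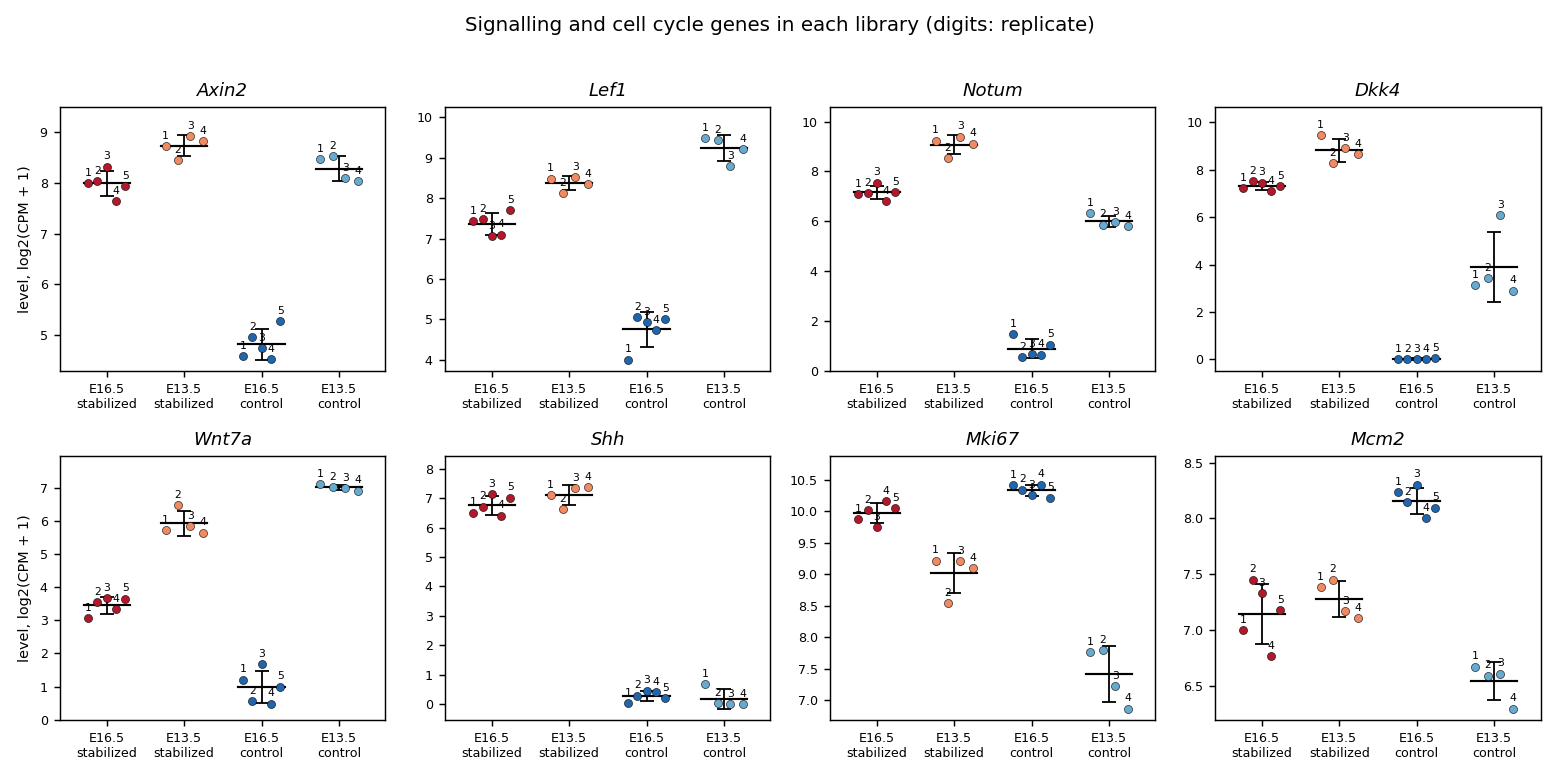
Level of 8 signalling and cell cycle genes on a log2(CPM + 1) scale in each library, by group; digits give the replicate, horizontal lines the mean and bars the SD over replicates (n = 5, 4, 5 and 4), and axes differ between genes. Axin2, Lef1, Notum and Dkk4 were lower at E16.5 in both genotypes but far lower in controls, Shh was present in stabilized libraries of both stages and near 0 in controls, and Mcm2 was called higher at E16.5 only in controls, with a called difference between genotypes.

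Genes of the hair placode and germ moved in both directions. Of 20 tested placode and germ genes 4 were called higher (20%) and 6 lower (30%), against 16.6% and 11.5% of all tested genes. Shh, the Hedgehog ligand of hair placodes, little expressed in mammary buds, had 90.5, 104, 141, 84 and 129 CPM at E16.5, against 138, 98.3, 163 and 165 CPM at E13.5, overlapping ranges that were not called (-0.36, edgeR adjusted p = 0.59). Controls had 0.222 CPM at E16.5 and 0.155 CPM at E13.5. The Hedgehog targets Ptch1 and Gli1 were likewise not called in stabilized epithelium, at 1173, 854, 1496, 870 and 1014 CPM for Ptch1 at E16.5, against 858, 783, 1131 and 1241 CPM at E13.5. Of 12 tested Hedgehog genes 4 were called higher, the co-receptors Boc (1.58 ± 0.141, adjusted p = 1.12e-07) and Cdon (0.42, adjusted p = 0.0328; lost in 7 of 28 alternatives, adjusted p 0.0511 to 0.105), the antagonist Hhip (1.24) and the factor Gli2 (0.72, adjusted p = 0.0311; 0.0536 to 0.09 without E16.5 replicate 1 or without E13.5 replicate 1, 2 or 4). Boc had 98.2, 109, 106, 77.8 and 96.2 CPM, against 30.5, 31.7, 38.3 and 29.7 CPM.

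Lhx2, a factor of follicle stem cells, had 204, 262, 154, 134 and 186 CPM at E16.5, against 47.5, 42.5, 84.8 and 59.2 CPM at E13.5 (1.68, edgeR adjusted p = 0.00231; 0.0653 under the offsets of the deposited normalized table). Tbx1, also of follicle stem cells, had 147, 171, 140, 83.3 and 137 CPM, against 12.3, 6.54, 20.4 and 9.65 CPM (3.47, adjusted p = 0.00077). Neither gene overlapped between stages. Edar, the ectodysplasin receptor of placodes, had 112, 70.9, 115, 66.6 and 83.1 CPM, against 227, 260, 274 and 244 CPM (-1.49 ± 0.16, adjusted p = 1.19e-06). Fgf20, a placode signal downstream of Eda, averaged 20.3 ± 4.29 CPM at E16.5 and 46.2 ± 7.59 CPM at E13.5 (SD, n = 5 and 4), without overlap (-1.19, adjusted p = 0.00342). Of 20 tested Eda and NF-κB genes 5 were called higher and 4 lower (25% and 20%, against 16.6% and 11.5% of all tested genes).

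In the fibroblast growth factor pathway 8 of 21 tested genes were called lower and 2 higher (38.1% and 9.52%, against 11.5% and 16.6% of all tested genes). Fgf4, a ligand of early embryonic signalling centres, had 4.36, 9.78, 9.09, 7.96 and 9.13 CPM at E16.5, against 83.4, 104, 73.3 and 111 CPM at E13.5 (-3.52, edgeR adjusted p = 0.000504). Dusp6, a feedback phosphatase of the ERK pathway, had 387, 419, 445, 426 and 376 CPM, against 523, 662, 619 and 661 CPM (-0.59), whereas controls averaged 643 CPM at E16.5 and 221 CPM at E13.5. Fgfr3 (1.26) and Fgf22 were the 2 called higher, Fgf22 with 16, 7.73, 5.48, 5.5 and 7.16 CPM, against 0.274, 0, 0.762 and 0 CPM (adjusted p = 0.021; 0.0557 without E13.5 replicate 1 and 0.0836 under the offsets of the deposited normalized table). In the Bmp pathway 7 of 24 were called higher and 3 lower (29.2% and 12.5%, against 16.6% and 11.5% of all tested genes). Bmp4, a ligand of the bud and of the hair precortex, had 135, 141, 106, 144 and 153 CPM, against 395, 251, 339 and 285 CPM (-1.23, adjusted p = 0.00214). Under the offsets of the deposited normalized table, which differ by gene and library, the sign of its change turned, to 0.35 (edgeR adjusted p = 0.615). In the Notch pathway 3 of 19 were called higher (15.8%, near the 16.6% of all tested genes), the ligand Jag1 (1.24, adjusted p = 5.55e-06), Nrarp (1.40) and Heyl (1.88), and Hes6 was called lower (-1.15). Jag1 had 294, 218, 285, 191 and 217 CPM, against 94.4, 104, 99.3 and 111 CPM.

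Genes of the embryonic mammary bud were called lower more often than higher in both genotypes. Of 28 tested genes 13 were called lower and 5 higher, median -0.53, against 20 lower and 5 higher in controls, median -1.93; the change was higher in stabilized epithelium for 15 and lower for 5. Tbx3, required for mammary placodes, had 289, 297, 246, 201 and 255 CPM at E16.5, against 519, 591, 591 and 507 CPM at E13.5 (-1.10 ± 0.132, edgeR adjusted p = 4.38e-06). Erbb4, a receptor of neuregulins, had 0.0383, 0.126, 0.0681, 0.5 and 1.09 CPM, against 8.21, 30.4, 9.77 and 10.6 CPM (-5.32, adjusted p = 1.59e-05). Its ligand gene Nrg3 also fell (-2.40), as did Sox11 (-1.01) and Sox4 (-0.88). Sox10, which marks mammary epithelium as well as glia and melanocyte precursors, was called higher in both genotypes, with 9.22, 60.8, 17.9, 24.6 and 35.4 CPM at E16.5, against 11, 9.89, 5.47 and 6.25 CPM at E13.5, overlapping ranges. In controls it averaged 554 CPM at E16.5 and 1.32 CPM at E13.5, a difference of -6.84.

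Genes of the mammary lineages were mixed, beside 16.6% of all tested genes called higher and 11.5% lower (25.1% and 22.6% in controls). Of 23 tested simple keratin and luminal genes 6 were called higher and 2 lower, against 12 and 5 in controls, and of 12 contractile and myoepithelial genes 5 were called higher and 1 lower, against 10 and 0 in controls. Krt8, the simple keratin of luminal cells, had 15.6, 93.7, 40.8, 54.5 and 51.8 CPM at E16.5, against 85.7, 113, 66.8 and 66.2 CPM at E13.5 and was not called, and neither was its partner Krt18. Krt7, a simple keratin also of glands and follicles, had 265, 132, 80.8, 94.5 and 101 CPM, against 8.96, 3.48, 10.2 and 11.8 CPM (3.96 ± 0.416, edgeR adjusted p = 2.01e-06). Ehf, an ETS factor of barrier and glandular epithelia, had 54.5, 53.8, 31.1, 42.7 and 35.7 CPM, against 0.855, 0.896, 0.693 and 1.01 CPM (5.65, adjusted p = 3.52e-08), and controls likewise had 44.2 CPM at E16.5 and 0.133 CPM at E13.5. Oxtr, the oxytocin receptor, had 25.8, 43.1, 48.2, 25.7 and 32.9 CPM, against 0.137, 0, 0.416 and 1.54 CPM, while smooth muscle actin Acta2 was not called.

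For nearly all cell cycle genes tested the change was lower in stabilized than in control epithelium. Of 24 tested S phase genes 3 were called higher and 1 lower in stabilized epithelium (none in either direction under the offsets of the deposited normalized table), and of 24 G2 and M phase genes 12 were called higher and none lower (6 under those offsets, 7 without E13.5 replicate 2). In controls 23 of 24 and 24 of 24 were called higher, with medians of 1.88 and 2.71, and the change was lower in stabilized epithelium for 23 and 24. Mki67, the Ki-67 proliferation marker, had 943, 1035, 858, 1145 and 1060 CPM at E16.5, against 595, 373, 593 and 549 CPM at E13.5 (0.93, edgeR adjusted p = 0.000548). Control Mki67 was 1291 CPM at E16.5 and 176 CPM at E13.5, a difference of -1.94. Mcm2, a replication helicase subunit, was not called in stabilized epithelium, while controls had 285 CPM at E16.5 and 92.5 CPM at E13.5. Ccne1, the cyclin of S phase entry, had 15.2, 15.9, 16.1, 14.2 and 17.8 CPM, against 44.4, 45.3, 37.4 and 35.4 CPM (-1.36 ± 0.16, adjusted p = 3.47e-06; 0.104 under those offsets), a fall without overlap, whereas controls had 34.7 CPM at E16.5 and 6.97 CPM at E13.5.

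Of 17 tested inhibitors of the cell cycle 6 were called higher and 4 lower (35.3% and 23.5%, against 16.6% and 11.5% of all tested genes). Cdkn1b, p27, had 97.8, 91.4, 84.1, 67.3 and 88.1 CPM at E16.5, against 40.3, 30.3, 42.1 and 46.2 CPM at E13.5 (1.11 ± 0.14, edgeR adjusted p = 7.88e-06). Cdkn2b, p15, had 33.6, 18.4, 15, 22.4 and 22.9 CPM, against 2.05, 0.431, 1.07 and 1.77 CPM (4.07, adjusted p = 0.00324). Cdkn1a, p21, was high at both stages, with 508, 268, 319, 253 and 297 CPM, against 471, 230, 458 and 376 CPM, and was not called. Control levels of Cdkn1a were 36.1 CPM at E16.5 and 10.2 CPM at E13.5.

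**Figure D5:**
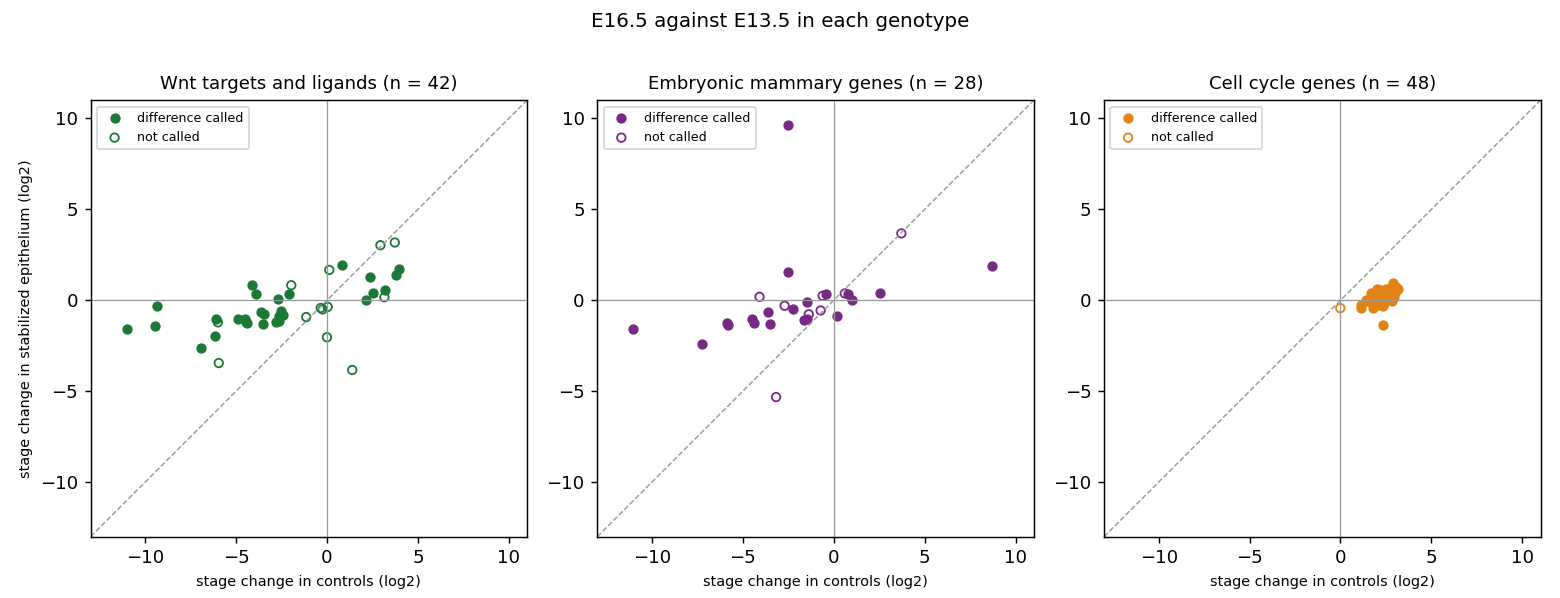
Stage change (log2, E16.5 over E13.5) of 42 Wnt target and ligand genes, 28 embryonic mammary genes and 48 cell cycle genes in stabilized epithelium (vertical) and in controls (horizontal); each point is a gene, filled where the difference between genotypes was called, and the dashed line marks equal change. Wnt and mammary genes that fell in controls mostly lie above the line, cell cycle genes lie below it with a called difference for 47 of 48, and the point highest in the middle panel is Areg, whose fitted change is no measure of size because it had no counts in E13.5 stabilized libraries.

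Of the 12 genes with the largest falls among those without overlap and whose log2 CPM averaged 1 or more over the 9 stabilized libraries (predicted genes left out), several were transcription factors. Sall4, a zinc finger factor of embryonic stem cells, had 0.421, 0.316, 0.307, 2.07 and 0.951 CPM at E16.5, against 21.4, 26.4, 27.2 and 15.2 CPM at E13.5 (-4.79, edgeR adjusted p = 9.26e-06). Sox2, also of embryonic stem cells and of Merkel cells, had 0.536, 0.316, 0.545, 0.857 and 0.509 CPM, against 15.9, 7, 15.5 and 9.62 CPM (-4.43, adjusted p = 0.00269). Controls had 0.297 CPM of Sox2 at E16.5 and 0.1 CPM at E13.5. Irx6, a homeobox gene, fell by 5.14 (adjusted p = 1.07e-06), and in controls it had 3.35 CPM at E16.5 and 134 CPM at E13.5, a difference between genotypes of 0.18 ± 0.643 (adjusted p = 0.877). Nfam1, an immune receptor gene, had 0.306, 0.536, 1.46, 1.39 and 1.29 CPM, against 41, 20.4, 34.3 and 49.3 CPM. The potassium channel gene Kcnv1 (-5.11), the glutamate receptor gene Gria2 (-4.28), the kinase gene Ak5 (-4.18), Fstl4 (-3.99), Fam221b (-4.53) and the adhesion gene Nfasc (-3.93) completed the group with Cdx1. Tmf1 was uneven at E13.5, with 158, 131, 185, 236 and 165 CPM at E16.5, against 11533, 4401, 7009 and 1391 CPM at E13.5, and was high in E13.5 controls too (392 CPM at E16.5 and 4441 CPM at E13.5).

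Only a small part of the 2744 genes called higher lay in the 4 gene clusters described here, which hold members of the lists above. Of all tested genes 16.6% were called higher. Coordinates are of GRCm38, from the GENCODE M21 annotation. In the type I keratin and Krtap cluster (chr11:99232761-100269871, Krt222 to Krt42), 56 of 63 tested genes were called higher and none lower, median 12.64; Krt14, Krt19, Krt20, Krt222, Krt23, Krt42 and Krt9 were not called, and 45 of the 77 genes had no counts at E13.5. In the type II keratin cluster (chr15:101347444-102032027, Krt80 to Krt18), 23 of 26 were called higher, the exceptions being Krt4 and the simple keratins Krt8 and Krt18. In the epidermal differentiation complex (chr3:90511034-93526287, S100a1 to S100a11), which holds Lor, Flg, Tchh and the small envelope proteins, 45 of 50 were called higher, with a median of 9.51. In the desmosomal cadherin cluster (chr18:19960930-20604521) 8 of 9 were called higher, all but Dsg1c. In controls 5, 11, 6 and 7 genes of the 4 clusters were called higher, and 2 of the type I cluster were called lower. Neighbouring copies in a cluster are not independent of each other.

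Among markers of other cell types, those of pigment cells had the highest share of calls. Of 10 melanocyte genes 8 were called higher in stabilized epithelium and 7 in controls; the summed level was 195 to 288 CPM at E16.5 and 22 to 32.9 CPM at E13.5 in stabilized libraries, against 109 to 180 CPM at E16.5 and 23.4 to 28.6 CPM at E13.5 in controls. Dct, an enzyme of melanin synthesis, had 54.6, 59.6, 80.3, 101 and 78.7 CPM at E16.5, against 9.13, 4.11, 2.53 and 5.14 CPM at E13.5 (3.84), and Tyrp1 had no counts at E13.5. Summed mesenchymal markers were 1140 to 1550 CPM at E16.5 and 1090 to 1430 CPM at E13.5, with 5 of 17 called higher and 2 lower. Within that list Dcn, a matrix proteoglycan, had 284, 373, 383, 256 and 211 CPM, against 14.1, 2.29, 25.5 and 16.4 CPM (4.37), while Postn, periostin, had 23, 45.1, 55.8, 113 and 41 CPM, against 490, 673, 415 and 375 CPM (-3.13). Endothelial and muscle markers had no call in either direction, with sums of 7.29 to 15 and 11.8 to 21.9 CPM at E16.5, against 7.07 to 15.7 and 11.1 to 17.1 CPM at E13.5. Immune markers summed to 12.4 to 15.5 CPM at E16.5 and 5.06 to 7.83 CPM at E13.5, with 4 of 15 called higher. Of 14 neural and Schwann cell genes 3 were called higher and 1 lower, of 6 Merkel cell genes 2 and 1, of 4 adipocyte genes 1 and 0, and the 1 tested erythroid gene was not called. Among all tested genes 16.6% were called higher and 11.5% lower in stabilized epithelium. Atoh1, the defining factor of Merkel cells, had no counts in any stabilized library. Of 18 immediate early and stress genes 12 were called higher in stabilized and 12 in control epithelium; Fos had 767, 94.8, 65.4, 138 and 129 CPM, against 10.1, 6.97, 29.7 and 31.4 CPM (3.61, edgeR adjusted p = 0.00608; 2.46 without replicate 1).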

How the data were processed

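Total RNA of pooled mammary epithelium was sequenced from 18 libraries made with the Ovation SoLo kit, per the labels' protocols. Per the submitters' processing notes, Trimmomatic 0.39, Salmon 0.99.0, FastQC 0.11.8, MultiQC 1.9 and DESeq2 (version written there as 3.15) were used with build mm10; the annotation release is not given in the sources used here. The deposited raw table holds estimated counts per gene for all libraries, which were rounded to whole numbers. The deposited normalized table, a signal scaled by the authors, served only as an alternative scaling, through its ratio to the counts for each gene and library. Samples were grouped by genotype and stage from the labels. Of 24376 genes, 24166 had a symbol and a GENCODE M21 position and 23108 were autosomal; 210 without a position were left out.

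Counts were tested with edgeR 4.0.16 (R 4.3.3, limma 3.58.1) on TMM sizes, after filterByExpr with a minimum count of 10, with 1 mean for each of 4 groups and a robust quasi-likelihood fit. P-values were adjusted (Benjamini-Hochberg) over all 17269 tested genes, of which 16580 were autosomal, with a threshold of 0.05. The SE of a change was computed as its absolute value over the square root of the F statistic. It is an approximation and is unreliable for genes with few counts. CPM use effective library sizes. The prior count of 2 applies to log2 CPM only, and fitted changes use the default prior count of edgeR's fit. A group with 0 counts was set to a floor of 3 counts over the group for the lower bounds; bounds and ratio intervals (95%, exact) cover counting error only, since the reads carry no molecule identifiers used here. No 2 libraries held identical values. Replicate numbers did not pair the samples across groups. Which libraries came from the same litter is not given, so p-values treat the pools as independent. The fit was tested on simulated data. Alternatives were DESeq2's size factors, the offsets per gene and library of the deposited normalized table, no filter, a replicate block and no robust step. Adjustment over autosomal genes alone, the 9 stabilized libraries alone, DESeq2 1.42.0 and leaving out each library were others. Leaving out both E16.5 stabilized replicate 4 and E13.5 control replicate 3, and leaving out satellite-like genes, were chosen after seeing the data.

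The members, the 39 gene lists and the tests were chosen with earlier results of these data known. The rule named Ctnnb1, Krt14, Axin2 and Lef1, the 12 genes per direction with the largest called change, no overlap between stages and a mean log2 CPM of at least 1 over the 9 stabilized libraries (predicted genes left out, at most 4 Krtap genes), up to 3 members of each list by smallest adjusted p (1 for markers of other cells and of stress) and the 6 genes per direction with the largest called difference between genotypes under the same conditions, the mean taken over all 18 libraries. The other genes were named for their known roles after their values were seen.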

Additional observations from a re-analysis of the deposited data

Results flagged for a closer look

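Libraries far from the others of their group were looked for in 316 groups of 4 or 5 libraries, on log2(CPM + 1), by the gap to the nearest library as a share of the group's range. Dixon's 95% critical value was passed in 33 groups, where chance gives about 1 in 20.

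Replicate 1 of E16.5 stabilized epithelium was far above the others in summed companion layer keratins (share 0.844; 12400 CPM, others 3107 to 3855), spinous genes (0.867; 23063, others 3300 to 4270), granular and cornified genes (0.851; 14117, others 1395 to 1971), barrier lipid genes (0.795; 2374, others 765 to 965) and desmosome genes (0.761; 24832, others 10299 to 12709), and in Krt17 (0.807; 5245, others 2030 to 2438). Replicate 3 of the same group was low for Krtap16-1 (0.818; 107 CPM, others 368 to 485) and high for Fam221b (0.731; 4.02, others 0.344 to 0.915). Replicate 4, the library with many satellite-like counts, was low for Col17a1 (0.939; 760 CPM, others 1177 to 1211), Sp5 (0.841; 26.1, others 50.2 to 56.8), Sox11 (0.75; 437, others 547 to 590), Nrarp (0.73; 51.3, others 111 to 147) and summed hair shaft regulators (0.711; 2757, others 3390 to 3687).

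Replicate 2 of E13.5 stabilized epithelium was low for summed companion layer keratins (0.864; 110 CPM, others 392 to 478) and G2 and M phase genes (0.873; 1594, others 2423 to 2576), and for Krt17 (0.865; 109, others 370 to 447), Cebpb (0.941; 22.2, others 35.2 to 36.2), Fst (0.882; 1.43, others 7.39 to 8.9), Cenpf (0.882; 140, others 231 to 247), Gadd45b (0.848; 2.36, others 7.39 to 8.89), Foxc1 (0.83; 7.23, others 28.3 to 37) and Prkg2 (0.84; 0.464, others 1.46 to 1.71). It was high for Wnt9b (0.902; 80.7, others 31 to 34.1). Replicate 1 of that group was high for Gprc5d (0.883; 1.33 CPM, others 0 to 0.104), for Hbb-bt (1; 1.57, others 0) and for summed erythroid markers (0.854; 11.8, others 0.199 to 0.693). It was low for summed sebaceous (0.938; 544, others 616 to 621), Fgf (0.991; 2345, others 2711 to 2715) and Notch genes (0.877; 1484, others 1670 to 1698). Replicate 4 of that group was low for Elovl4 (0.83; 2.58 CPM, others 4.78 to 5.37) and high for summed hair shaft keratins (0.915; 1.37, others 0.531 to 0.589). In controls, E16.5 replicate 1 was low for Krt79 (0.713; 109 CPM, others 246 to 342) and E13.5 replicate 3 high for Dkk4 (0.835; 66.5, others 6.44 to 9.7).

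The stage change differed between the genotypes (edgeR, adjusted over all genes) for 2590 autosomal genes that changed more upward in stabilized epithelium and for 2798 that changed more downward. Among genes other than predicted ones whose stabilized ranges did not overlap and whose mean log2 CPM over the 18 libraries was at least 1, a limit that leaves out Krt34 and Krt81 among others, the largest upward differences were Dkk4 (9.46, adjusted p = 8.94e-05), Tchh (8.89, adjusted p = 3.98e-07), Bmper (8.81, adjusted p = 1.04e-07), Gjb6 (8.46, adjusted p = 8.1e-06), Sp5 (8.04, adjusted p = 8.6e-09) and Sbsn (7.26, adjusted p = 3.82e-05). Dkk4 and Sp5 had 1 and 4 counts over the E16.5 controls, so the sizes of their differences rest on few reads. Bmper, a modulator of Bmp signals, averaged 6.21 CPM at E16.5 and 0.762 CPM at E13.5 in stabilized epithelium, against 0.427 CPM at E16.5 and 24 CPM at E13.5 in controls. Gjb6, a gap junction gene, averaged 29.2 CPM at E16.5 and 5.52 CPM at E13.5 in stabilized epithelium, against 0.196 CPM at E16.5 and 13.1 CPM at E13.5 in controls.

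Under the same limits the largest downward differences were Slc30a2 (-11.48, adjusted p = 2.93e-09), Foxc1 (-11.24, adjusted p = 1.96e-06), Ets1 (-9.85, adjusted p = 7.77e-11), Muc15 (-8.40, adjusted p = 2.27e-06), Krt79 (-8.33, adjusted p = 0.000102) and Prkg2 (-7.78, adjusted p = 4.16e-07). Foxc1 and Muc15 had no counts in E13.5 controls, so their fitted differences are no measure of size. Slc30a2, Krt79 and Prkg2 had 2, 3 and 1 counts over that group, so the sizes of their differences rest on few reads. Ets1, an ETS transcription factor, averaged 13.3 CPM at E16.5 and 27.3 CPM at E13.5 in stabilized epithelium, against 216 CPM at E16.5 and 0.48 CPM at E13.5 in controls. Slc30a2, a zinc transporter, averaged 2.09 CPM at E16.5 and 23.4 CPM at E13.5 in stabilized epithelium, against 4.99 CPM at E16.5 and 0.0148 CPM at E13.5 in controls.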

How the results depend on the processing

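The counts of genes called were recomputed under 28 alternatives, of which 18 left out 1 library. Genes higher at E16.5 in stabilized epithelium numbered 2744 and genes lower 1903; leaving out 1 library gave 2300 to 3070 and 1509 to 2193, and the other alternatives kept both within 1.5 times. Differences between genotypes numbered 2590 higher and 2798 lower, with 2273 to 2756 and 2478 to 3140 when 1 library was left out. The upper end of each of these ranges came from leaving out E13.5 control replicate 3. Under the offsets of the deposited normalized table, differences called lower numbered 1844, and the cause was not tested. The sign of the stage change of Bmp4 turned to 0.35 (adjusted p = 0.615) under those offsets, against -1.23. With a replicate block 2478 genes were higher and 1739 lower, and 2330 and 2647 differences were called; same-numbered libraries did not deviate together (correlations -0.0338 to 0.0151), so the block is no pairing. DESeq2 called 3217 higher and 2075 lower.

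Of 124 named genes called for the stage change, 111 kept the call in every alternative and 12 lost it in some. Those 12 were Ak5, Ccne1, Ctnnb1, Dkk4, Flg, Gli2, Lef1, Mcm4, Prc1, Rrm2, Scd1 and Soat1. Mcm4 and Rrm2 lost it without E13.5 stabilized replicate 1 or 4 and under the offsets, Gli2 without E16.5 stabilized replicate 1 or E13.5 stabilized replicate 1, 2 or 4 and with the replicate block (adjusted p = 0.0546), and Ctnnb1 without E13.5 stabilized replicate 3 or 4 and under the offsets. Dkk4 lost it in 15 alternatives (adjusted p 0.05 to 0.116) and Flg in the fit of stabilized libraries alone (adjusted p = 0.0614), while Lef1 lost it only under the offsets (adjusted p = 0.0876). All 12 named differences kept their call in every alternative. Depth limits what can be said of genes near 0 in both control groups, and sex, litter and stage could not be separated.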

Other observations

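Hox genes other than Hoxc13, chosen after their values were seen, fell or were not called. Of 36 autosomal Hox genes 25 were tested. In stabilized epithelium 1 was called higher at E16.5 (Hoxc13) and 6 lower, whereas in controls 16 were called lower and none higher. Controls had more lower calls over all tested genes too, 22.6% against 11.5% in stabilized epithelium. The 5 other tested members of the Hoxc cluster were all among those called lower. Hoxc8 averaged 1.33 CPM at E16.5 and 17.8 CPM at E13.5, Hoxc6 0.676 CPM at E16.5 and 9.42 CPM at E13.5, Hoxc4 0.693 CPM at E16.5 and 9.02 CPM at E13.5, and Hoxc13 93.8 CPM at E16.5 and 11.1 CPM at E13.5 in stabilized epithelium. The stage change was higher in stabilized than in control epithelium for 10 Hox genes.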
